A study of Saccharomyces cerevisiae with 12 samples.

Results

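Acetylated histone H4 (AcH4) was compared between *rco1*Δ and wild type budding yeast along the 16 nuclear chromosomes, with 3 *rco1*Δ arrays and 3 wild type arrays, 6 of the 12 arrays of the series. The *rco1*Δ strain lacks *RCO1*, the wild type strain is BY4741, and both were grown in YPD, a rich glucose medium. Chromatin was immunoprecipitated (IP) with an antibody to acetylated H4, and the IP and input DNA were amplified with T7 polymerase, labeled with Cy5 (IP) and Cy3 (input) and hybridized together to a tiling array. The other 6 arrays, 3 of *rsc1*Δ and 3 of *rsc2*Δ, were used here to define AcH4-poor and AcH4-rich stretches, so that the definition did not use the arrays under comparison. In every width class of stretches, AcH4 in these 6 arrays was closer to wild type than to *rco1*Δ. The choice of stretches was therefore not neutral between the strains. Each value is the log2 ratio of IP over input with the median probe of its array at 0, for 41480 probes with a median length of 60 nt and a median spacing of 257 bp. A difference is therefore a difference relative to the median probe, and each value is an average over the cells of a culture, in which more acetylation per cell and more cells with acetylation cannot be told apart. Total H4 was not analyzed here.

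Rco1 is a subunit of Rpd3S, a histone deacetylase complex that also holds Rpd3, Sin3, Ume1 and Eaf3. Set2 travels with elongating RNA polymerase II and methylates lysine 36 of histone H3, and Rpd3S, which binds this mark through Eaf3 and Rco1, removes acetyl groups from the nucleosomes of transcribed ORFs. In wild type cells acetylation of H4 is therefore known to be high around the 5′ ends of genes and low over their bodies. Heterochromatin near the ends of yeast chromosomes is also low in acetylated H4, but there another deacetylase, Sir2, does this work. The array files give positions on the sacCer1 assembly and no gene names, so regions are described here by position and width and were not assigned to genes.

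The deleted gene was looked for first, as the longest run of neighboring probes with input lost in *rco1*Δ relative to the other arrays. The low input given here is therefore set by that choice, and the position was not checked against an annotation. At 7 neighboring probes on chromosome 13 (414125 to 416052), the chromosome on which *RCO1* lies, the median input signal was 1.37%, 6.7% and 10.4% of the array median in *rco1*Δ replicates 1, 2 and 3, against 78.9%, 95.8% and 101% in wild type replicates 1, 2 and 3. None of the 7 probes was well above background in the *rco1*Δ arrays, and these probes were kept out of every class and stretch below. By the slide and position in their scan headers, all 3 *rco1*Δ arrays and wild type replicate 3 lay where an array of another strain had been scanned earlier: *rsc2*Δ replicate 2, wild type replicate 1 and *rsc1*Δ replicate 3 for *rco1*Δ replicates 1, 2 and 3, and *rsc1*Δ replicate 2 for wild type replicate 3. In *rco1*Δ replicate 2, 192 of 209 outlier-flagged spots were also flagged in wild type replicate 1, and at most 5 in any other array. The deviations of each of these 4 arrays from its strain mean correlated with those of the earlier array at between -0.01 and 0.24 across probes. The part of the shared positions in the results was not tested beyond the array position as a random block, which gave 10996 probes called higher and 12238 lower. Among wild type arrays only replicate 3 lay at such a position, so earlier use of a position and the deletion are largely confounded. No *rco1*Δ array shared a scan with a wild type array or with any other array, so scan and deletion cannot be told apart. The scan as a random block gave 10833 probes called higher and 11789 lower, which does not separate them. Wild type replicates 1 and 2 shared a scan and a slide with *rsc1*Δ replicate 1 and *rsc2*Δ replicate 1. Across probes, *rco1*Δ arrays correlated with one another at 0.70 to 0.80 and wild type arrays at 0.93 to 0.97. The median absolute deviation of the log2 ratio was 0.55, 0.53 and 0.70 in *rco1*Δ replicates 1 to 3 and 1.08, 1.13 and 1.14 in those of wild type, so the *rco1*Δ profile was flatter in all 3 arrays. Both channels were well above background in all 6 arrays at 28963 probes, called bright probes below. With 3 arrays per strain, precision was limited by their number.

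Probes called higher in *rco1*Δ formed longer runs of neighbors than probes called lower. In limma, 26% of the 41480 probes passed as higher in *rco1*Δ and 28.1% as lower at an adjusted p under 0.05. The 10767 probes called higher became 3193 after plain background subtraction and 4278 after loess normalization, and the 11666 called lower became 6854 and 3051. Over the 41473 probes outside the *RCO1* locus, the mean difference was 0.04 and the median difference -0.24: differences above 1 were found at 22.7% of the probes, and differences below -1 at 19.3%. There were 221 runs of 10 or more neighboring probes called higher, 31 of which held 20 or more. Losses formed 21 runs of 10 or more probes and none of 20 or more, and the longest held 14 probes against 48 for the longest gain. Run length also depends on the share of probes that pass. In stretches of at least 4000 bp, 51.5% of AcH4-rich probes were called lower and 76.4% of AcH4-poor probes higher. With 1 value for each stretch, 103 of 105 such rich stretches were called lower and 147 of 155 such poor stretches higher. The difference at a probe was shared with its neighbors over short distances, with a correlation of 0.77 between probes 200 to 400 bp apart, 0.35 at 700 to 1300 bp and 0.05 at 1700 to 2300 bp. Wild type levels fell off in a like way, at 0.73, 0.31 and 0.04, and neighboring probes share DNA fragments.

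To ask how the gain depends on the width of the AcH4-poor region around a probe, neighboring probes with a mean log2 ratio below 0 over the 6 arrays of *rsc1*Δ and *rsc2*Δ were joined into stretches (at most 1000 bp between probe starts). AcH4-poor stretches gained more AcH4 the wider they were. In stretches of at least 4000 bp the mean log2 ratio was -0.56, -0.58 and -0.64 in the *rco1*Δ arrays and -2.11, -2.33 and -2.39 in those of wild type. The difference was 1.68, and it was 0.55 with loess normalization and 0.71 in the deposited value table. In stretches under 500 bp it was -0.46, -0.51 and -0.56 in *rco1*Δ and -0.59, -0.60 and -0.60 in wild type, a difference of 0.09. The classes between followed in order, with differences of 0.44 at 500 to 1000 bp, 0.79 at 1000 to 2000 bp and 1.17 at 2000 to 4000 bp. It was the wild type level that changed with width. From the narrowest to the widest class the *rco1*Δ mean stayed between -0.47 and -0.61, and the fall from narrow to wide stretches was 0.08 ± 0.02 in *rco1*Δ and 1.68 ± 0.15 in wild type (SD, n = 3 each; two-sided exact permutation p = 0.1, the smallest p that 3 arrays against 3 allow). *rco1*Δ and wild type were apart in each of the 5 classes (two-sided exact permutation p = 0.1 and adjusted p = 0.1 for each).

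**Figure D1:**
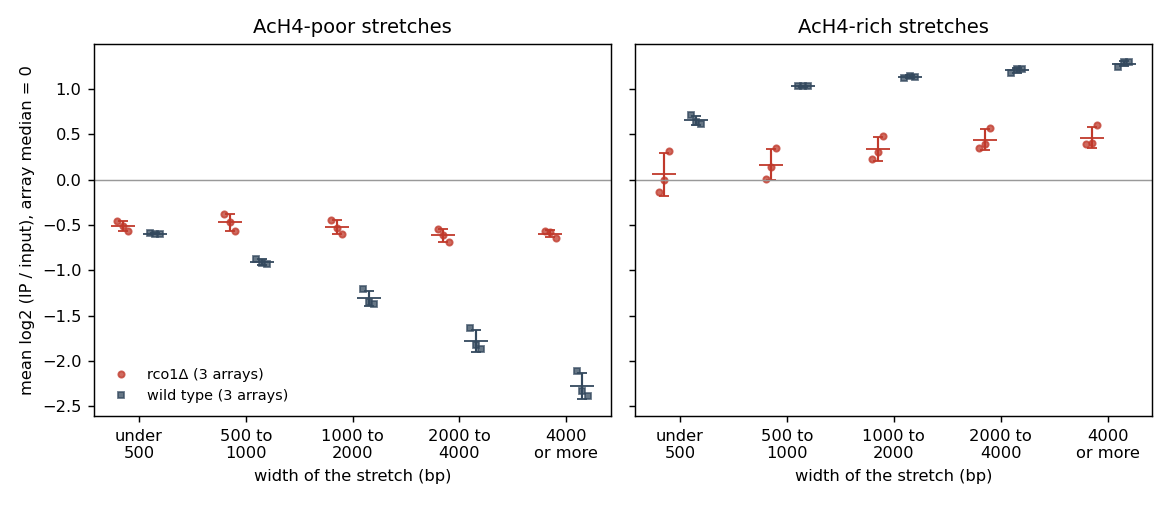
Mean log2 IP over input (y axis, array median at 0) of the probes in AcH4-poor stretches (left panel) and AcH4-rich stretches (right panel) by width in bp (x axis). Points are the 3 *rco1*Δ and 3 wild type arrays, dashes their means and bars the SD. In AcH4-poor stretches the *rco1*Δ level is nearly level across widths (-0.51 in the narrowest and -0.60 in the widest class) and the wild type level falls to -2.28 in the widest.

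Calls followed the same order. Among the probes of AcH4-poor stretches, 76.4% were called higher in the widest class, 62.9% at 2000 to 4000 bp, 50.7% at 1000 to 2000 bp, 35.3% at 500 to 1000 bp and 19.9% under 500 bp, against 26% of all probes. With 1 value for each stretch, so that wide stretches did not count by their probes, limma called 24.2% of 9250 stretches higher and 42.7% lower. Of the 155 AcH4-poor stretches of at least 4000 bp, 147 were called higher and 2 lower. At the narrow end, 516 of 2229 stretches under 500 bp were called higher and 401 lower, and their median difference was -0.01. The 1376 AcH4-poor stretches of a single probe differed by -0.04 on average, and 11 stretches of at least 8000 bp by 2.12. When every array was scaled to the same spread, the order of the classes was kept but the level moved, with differences of -0.36 under 500 bp, 0.02, 0.30 and 0.58 in the classes between, and 1.08 at 4000 bp or more. In the narrowest class the difference was also below 0 in the deposited value table (-0.15) and with plain background subtraction (-0.01), and above 0 under the other alternatives (0.04 to 0.41).

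Within wide stretches the difference grew with distance from the edge. In the AcH4-poor stretches of at least 2000 bp, probes less than 250 bp from an edge had a mean log2 ratio of -0.55 in *rco1*Δ and -1.06 in wild type, a difference of 0.51. Probes 500 to 1000 bp from an edge differed by 1.44, and probes at least 2000 bp from both edges by 2.23, with -0.64, -0.62 and -0.73 in *rco1*Δ and -2.69, -2.92 and -3.05 in wild type. Of these 815 innermost probes, 90.3% were called higher, against 26% of all probes, and 68.6% with every array at the same spread. Their IP channel was well above background for 62.5% of the spots in wild type and 87% in *rco1*Δ, so some wild type ratios rest on dim IP spots. With every array at the same spread, the differences were 0.01 under 250 bp from an edge, 0.82 at 500 to 1000 bp and 1.54 at 2000 bp or more. The *rco1*Δ level was again almost flat, between -0.55 and -0.66 over the 5 distance classes. Along the averaged profile of the stretches of at least 4000 bp, *rco1*Δ stepped down to -0.55 at the edge and stayed near that level, whereas wild type kept falling over the first 1000 bp and beyond. Just outside the edge the order of the strains was turned round, with 0.14 in *rco1*Δ and 0.71 in wild type in the first 250 bp.

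**Figure D2:**
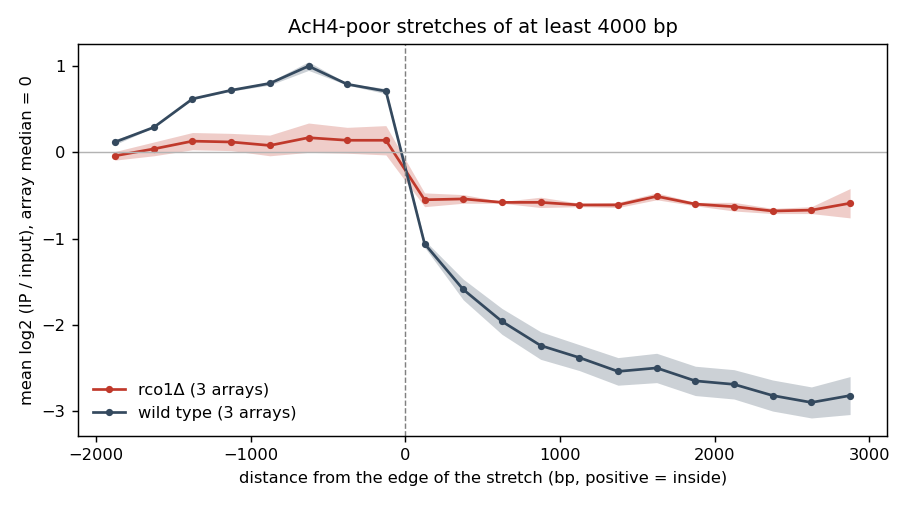
Mean log2 IP over input (y axis, array median at 0) by distance from the edge of AcH4-poor stretches of at least 4000 bp (x axis, bp, positive values inside). Lines are means of 3 arrays per strain and bands the SD between arrays. Inside the stretch *rco1*Δ stays near -0.6, and wild type reaches -2.38 at 1000 to 1250 bp.

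Wide stretches are also poorer in AcH4, so width was compared at equal level. Probes of stretches of at least 2000 bp were set against probes of stretches under 1000 bp in steps of 0.25 of the level over the arrays of *rsc1*Δ and *rsc2*Δ, with a mean level of -1.11 in both sets. The difference between the strains was 0.69 in the wide stretches and 0.40 in the narrow ones, and 0.32 and -0.11 with every array at the same spread. In *rco1*Δ, probes of wide stretches lay 0.12, 0.16 and 0.31 above probes of narrow stretches of the same level in the 3 arrays. In wild type they lay at -0.03, -0.12 and -0.14 relative to them. The effect of width at equal level was thus larger by 0.29 in *rco1*Δ, with no overlap between the arrays (two-sided exact permutation p = 0.1, adjusted p = 0.167 over 5 matched comparisons). With loess normalization or normexp background correction it was 0.13, and with every array at the same spread 0.43. Depth inside a stretch gave a similar picture: at equal level, probes at least 1000 bp inside wide stretches differed between the strains by 1.38 and probes less than 250 bp inside by 0.76 (two-sided exact permutation p = 0.1 for the difference of these, adjusted p = 0.167). This matching was chosen after the values by width had been seen.

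**Figure D3:**
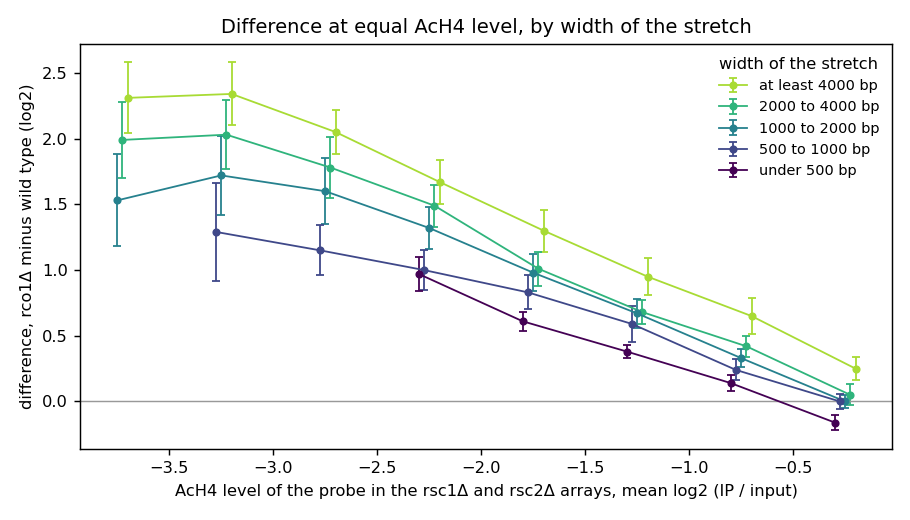
Difference in mean log2 IP over input between *rco1*Δ and wild type (y axis) by the AcH4 level of the probes over the *rsc1*Δ and *rsc2*Δ arrays (x axis, steps of 0.5) and by width of the stretch (colors). Bars are the SD of the difference from 3 arrays per strain. At levels between -2.5 and -2.0 the difference is 1.67 in stretches of at least 4000 bp and 0.97 in stretches under 500 bp.

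The widest AcH4-poor stretch spanned 13321 bp on chromosome 12 (349470 to 362790, sacCer1), and its 54 probes held the longest run of gains. The mean log2 ratio of the run of 48 probes (349470 to 361576) was -0.70, -0.53 and -0.51 in *rco1*Δ and -2.95, -3.18 and -3.31 in wild type. The difference of single probes in the run was between 1.36 and 3.91. That the groups do not overlap is largely set by joining only probes already called higher. In the wild type arrays only 52.8% of its spots were well above background in the IP channel, against 91% in the *rco1*Δ arrays. Many wild type ratios there thus rest on dim IP spots. Over its bright probes the difference was 2.09, and with loess normalization 0.81. The IP signal was 2.65 higher in *rco1*Δ relative to the array median and the input signal 0.11 higher.

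**Figure D4:**
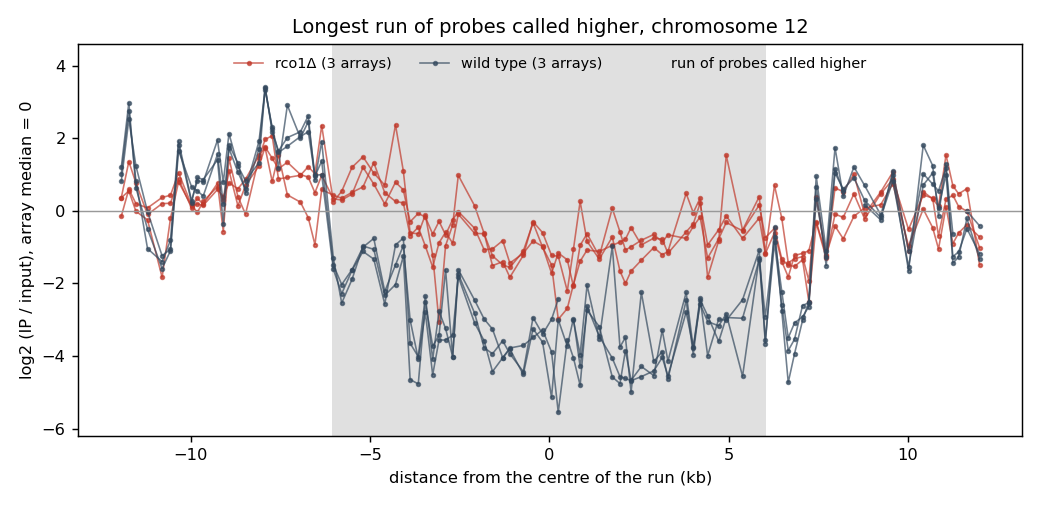
Log2 IP over input (y axis, array median at 0) of single probes by distance in kb from the centre of the longest run of probes called higher, on chromosome 12 (x axis). Each line is 1 array, with 3 per strain, and the grey band marks the run of 48 probes. The *rco1*Δ arrays average -0.58 and the wild type arrays -3.14 inside the band.

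Other long gains had the same form. The second longest run held 36 probes on chromosome 2 (516489 to 525775), with -0.44, -0.48 and -0.71 in *rco1*Δ and -2.62, -2.80 and -3.13 in wild type. A run of 35 probes on chromosome 8 (304565 to 313764) stayed low in *rco1*Δ, at -1.12, -1.02 and -1.28, against -3.22, -3.43 and -3.60 in wild type. By contrast, a run of 32 probes on chromosome 12 (54469 to 62663) came close to the array median in *rco1*Δ, with -0.07, -0.10 and -0.07, against -2.49, -2.77 and -2.83 in wild type. In none of these runs did the arrays of the strains overlap, which is largely set by joining only probes already called higher. The *rco1*Δ mean was below 0 in each of them, and 0.02 in the fifth longest run, on chromosome 11 (538587 to 546984).

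The largest rise of any called stretch with at least 5 probes was on chromosome 11 (538587 to 546984), a stretch of 32 probes that was called higher throughout. Its mean was -0.04, 0.09 and 0.00 in *rco1*Δ and -2.84, -3.02 and -2.93 in wild type, and the difference in limma was 2.95 ± 0.12 (SE; adjusted p = 1.72e-07). It was 1.01 with loess normalization and 1.84 in the deposited value table. The next largest rises were in narrower stretches, of 1204 bp on chromosome 16 (233699 to 234902) at 2.93 and of 2014 bp on chromosome 12 (767955 to 769968) at 2.77, with adjusted p = 2.02e-06 and 2.33e-06 from limma. In the stretch on chromosome 16 the *rco1*Δ arrays spread from -0.39 to 0.47, in the one on chromosome 12 from 0.07 to 0.31. The second widest stretch, 11504 bp on chromosome 12 (302901 to 314404), ended above the array median in *rco1*Δ, with 0.07, 0.21 and 0.15, against -2.08, -2.21 and -2.22 in wild type (limma adjusted p = 7.85e-07). The third widest, 10847 bp on chromosome 8 (302918 to 313764), had -1.22, -1.09 and -1.35 in *rco1*Δ and -2.99, -3.16 and -3.34 in wild type. Over its bright probes the difference was 1.06, against 1.94 over all its probes. Across the 155 stretches of at least 4000 bp, the mean lay above 0 in 31 stretches in *rco1*Δ and in none in wild type, where the highest was -0.64. Stretch means varied more in *rco1*Δ, with an SD over the 694 AcH4-poor stretches of at least 2000 bp of 0.75, 0.71 and 0.70, than in wild type, with 0.52, 0.55 and 0.57.

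Of the 8 stretches of at least 4000 bp that were not called higher, 5 lay at a chromosome end and 3 inside a chromosome. The widest was 7308 bp on chromosome 7 (476389 to 483696), where the mean was -1.40, -1.97 and -1.94 in *rco1*Δ and -1.53, -1.96 and -2.04 in wild type. The arrays overlapped, and the difference of 0.07 was not called (adjusted p = 0.758 from limma). Its 27 probes did not move together: 5 were called higher and 5 lower, with differences between -1.98 and 1.99. The mean difference of the stretch was -1.46 with every array at the same spread and 0.44 with normexp background correction. The other 2 inside a chromosome were on chromosome 2 (393639 to 397773), with a difference of 0.14, and chromosome 4 (382985 to 387015), with 0.36. The widest AcH4-poor stretch inside a chromosome that was called lower spanned 3400 bp on chromosome 2 (373174 to 376573), with -2.14, -2.01 and -1.91 in *rco1*Δ and -1.03, -1.46 and -1.44 in wild type (limma adjusted p = 0.00167). The stretches called lower, and those at chromosome 2 (393639) and chromosome 4, were picked after their values had been seen.

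The gains were in the IP channel. In the AcH4-poor stretches of at least 4000 bp, the log2 IP signal relative to the array median was -0.64, -0.58 and -0.61 in *rco1*Δ and -2.05, -2.26 and -2.27 in wild type, a difference of 1.59. The input signal was -0.18, -0.08 and -0.11 in *rco1*Δ and -0.07, -0.08 and -0.02 in wild type, a difference of -0.07. In stretches under 500 bp the IP signal was lower in *rco1*Δ by 0.11 and the input signal by 0.17, so there the higher ratio came with a lower signal in both channels. The IP and input signals are each centered on their own array median. With plain background subtraction, the IP difference in the widest class was 0.83. Over bright probes, the input difference turned to 0.11.

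AcH4-rich stretches, defined in the same way by a mean above 0, lost AcH4 in *rco1*Δ at every width, with a far smaller dependence on width. In stretches of at least 4000 bp the mean log2 ratio was 0.39, 0.41 and 0.60 in *rco1*Δ and 1.25, 1.30 and 1.30 in wild type, a difference of -0.82. In stretches under 500 bp it was -0.14, 0.00 and 0.32 in *rco1*Δ and 0.71, 0.64 and 0.62 in wild type, which differed by -0.60. The classes between differed by -0.87, -0.80 and -0.77 in order of width. The arrays did not overlap in any class (two-sided exact permutation p = 0.1 and adjusted p = 0.1 for each). Among the rich stretches, 3328 of 4602 (72.3%) were called lower and 135 (2.93%) higher, against 42.7% and 24.2% of all stretches. All but 1 of the rich stretches called higher were under 500 bp wide. Every one of the 105 rich stretches of at least 4000 bp but 2 was called lower. At equal level, wide and narrow rich stretches differed between the strains by -0.67 and -0.78, and the arrays overlapped (two-sided exact permutation p = 0.3, adjusted p = 0.3). Rich stretches of at least 1000 bp differed by -0.79 where the wider neighboring poor stretch was at least 4000 bp and by -0.80 where it was under 500 bp. Both channels contributed to the lower ratio in the widest rich stretches, with the IP signal lower in *rco1*Δ by 0.54 and the input signal higher by 0.30. With the gains in poor stretches, the losses left a smaller contrast along the chromosomes: rich minus poor stretches of at least 2000 bp came to 0.90, 1.00 and 1.26 in *rco1*Δ and 2.90, 3.13 and 3.18 in wild type. Loess normalization moved the loss to -0.33 in the widest class and -0.16 in the narrowest. With every array at the same spread it was -0.39 in the widest class and -0.55 in the narrowest. Probes called lower then made up 35.1% of the narrowest class and 19.5% of the widest, against 41.7% and 51.5% without this scaling. Over all 41480 probes, 9231 were called lower with it and 11666 without it.

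The longest runs of losses each held 14 probes. On chromosome 9 (246750 to 250244) the mean was -0.51, -0.51 and 0.20 in *rco1*Δ and 1.19, 1.05 and 1.27 in wild type, on chromosome 4 (591065 to 594458) 0.15, -0.10 and 0.16 in *rco1*Δ and 1.47, 1.43 and 1.42 in wild type. On chromosome 2 (305503 to 308804) it was 0.10, 0.34 and 0.32 in *rco1*Δ and 1.49, 1.34 and 1.50 in wild type. Every *rco1*Δ value lay below every wild type value in these runs, which is largely set by joining only probes already called lower. On chromosome 9, *rco1*Δ replicate 3 stood apart from the other *rco1*Δ arrays. The largest fall of a called stretch with at least 5 probes was on chromosome 6 (167771 to 168942), with -1.12, -1.45 and -0.81 in *rco1*Δ and 0.97, 0.91 and 0.86 in wild type, a difference of -2.04 ± 0.24 (SE; adjusted p = 2.76e-05 from limma). Next were chromosome 10 (374923 to 375885), at -1.93, and chromosome 7 (94697 to 95908), at -1.72 (adjusted p = 6.53e-05 and 0.00023 from limma). In these 3 stretches the input signal was higher in *rco1*Δ by 0.86, 1.08 and 0.90 and the IP signal lower by 1.21, 0.88 and 0.84, so both channels took part. With loess normalization the falls were -0.84, -0.79 and -1.01.

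Chromosome ends were AcH4-poor and yet lower in *rco1*Δ. Distance was taken from the outermost probe of each end. In the outer 5 kb the mean log2 ratio was -1.85, -1.65 and -1.55 in *rco1*Δ and -1.06, -1.18 and -1.29 in wild type, a difference of -0.50 with no overlap. It was -0.13 with normexp background correction and -1.96 with every array at the same spread. From 5 to 10 kb the mean was -0.56, -0.45 and -0.38 in *rco1*Δ and -0.24, -0.23 and -0.28 in wild type, a difference of -0.22. The difference was -0.06 from 10 to 20 kb, where the arrays overlapped, and 0.15 and 0.14 from 20 to 30 kb and from 30 to 50 kb, where *rco1*Δ was higher without overlap, but with every array at the same spread these were -0.02 and 0.01. Over 100 kb from an end the difference was 0.04 with overlap, and -0.05 at the same spread (two-sided exact permutation p = 0.1 for the 4 classes without overlap, adjusted p = 0.175 over 7 classes). In the outer 5 kb, 35.3% of 360 probes were called lower and 5.56% higher, against 28.1% and 26% of all probes. The IP channel there was well above background for 64.4% of the spots in *rco1*Δ and 80.9% in wild type, so some ratios, more of them in *rco1*Δ, rest on dim IP spots. Both channels took part at the ends, with the IP signal at -1.49 ± 0.11 in *rco1*Δ and -1.16 ± 0.16 in wild type, and the input signal at 0.08 ± 0.13 in *rco1*Δ and -0.12 ± 0.06 in wild type (SD, n = 3 each). Yeast chromosome ends hold repeated elements, and whether these probes match more than 1 place was not tested.

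**Figure D5:**
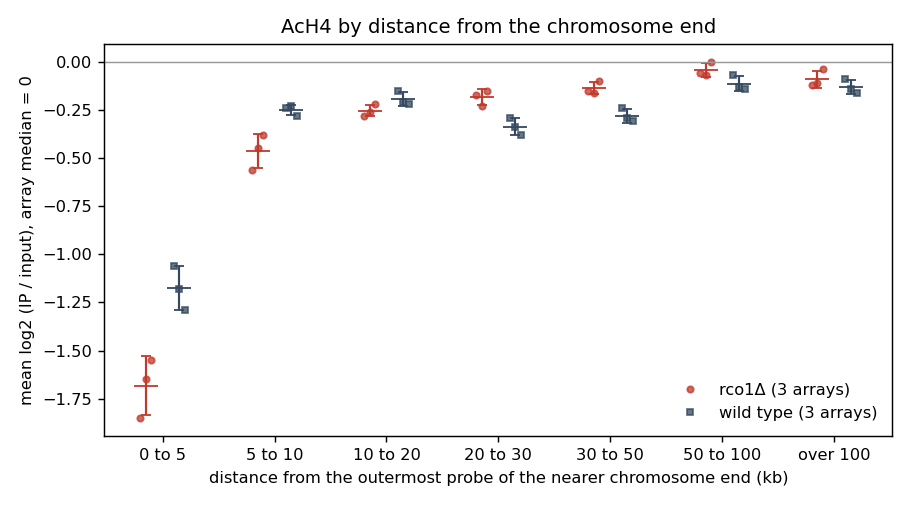
Mean log2 IP over input (y axis, array median at 0) by distance from the outermost probe of the nearer chromosome end (x axis, kb). Points are the 3 *rco1*Δ and 3 wild type arrays, dashes their means and bars the SD. The *rco1*Δ arrays lie below the wild type arrays up to 10 kb from the end and above them between 20 and 50 kb, where the differences of 0.15 and 0.14 became -0.02 and 0.01 with every array at the same spread.

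The lower AcH4 at chromosome ends was also seen at equal level. Probes within 10 kb of an end differed between the strains by -0.35, and probes over 100 kb from an end with the same level over the *rsc1*Δ and *rsc2*Δ arrays by 0.23. In *rco1*Δ the probes near ends lay at -0.71, -0.60 and -0.54 relative to the matched probes, and in wild type at -0.05, -0.02 and -0.05 (two-sided exact permutation p = 0.1, adjusted p = 0.167). This difference of -0.58 was between -0.29 with loess normalization and -1.10 with every array at the same spread. At equal level the higher AcH4 from 20 to 50 kb was not particular to that distance. The strains differed by 0.15 there and by 0.14 at the matched probes over 100 kb from an end. In this comparison the arrays overlapped (two-sided exact permutation p = 0.2, adjusted p = 0.25).

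Wide AcH4-poor stretches were then counted by their place. Of the 19 AcH4-poor stretches of at least 2000 bp within 10 kb of an end, 5 were called higher and 5 lower, with a median difference of -0.08. Over all stretches, 24.2% were called higher and 42.7% lower, and over AcH4-poor stretches of any width 45.3% and 13.3%. From 10 to 50 kb, 72 of 85 were called higher, and at 50 kb or more 524 of 590, with median differences of 1.33 and 1.35. In the class of at least 4000 bp, 1 of 6 stretches within 10 kb of an end was called higher and 146 of 149 farther in. These shares were not tested against each other, since stretches are not replicates. The first 6242 bp of probes on chromosome 7 (41 to 6282) had -2.85, -2.27 and -2.25 in *rco1*Δ and -2.11, -2.50 and -2.71 in wild type (adjusted p = 0.953 from limma), and the left end of chromosome 1 (48 to 5408) had -3.65, -3.02 and -2.83 in *rco1*Δ and -2.81, -2.94 and -3.05 in wild type (adjusted p = 0.338). The arrays overlapped at both. At the right end of chromosome 6 (265078 to 269826) and the left end of chromosome 15 (195 to 4868) the stretch was called lower. On chromosome 15 the mean was -2.58, -2.54 and -2.28 in *rco1*Δ and -1.27, -1.50 and -1.60 in wild type, a difference of -1.01 (adjusted p = 0.000134 from limma). On chromosome 6 it was -2.93, -2.38 and -2.12 in *rco1*Δ and -1.76, -2.04 and -1.94 in wild type, a difference of -0.56 close to the threshold (adjusted p = 0.0435 from limma). With normexp background correction the differences at chromosomes 15 and 6 were -0.04 and -0.09.

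The ends differed among themselves. The mean of the outer 10 kb was lower in *rco1*Δ at 27 of 32 ends and higher at 5, and the arrays overlapped at 10. All 3 *rco1*Δ arrays lay below all 3 wild type arrays at 19 ends, and above them at 3. Such separation was not particular to ends. Among AcH4-poor stretches of 1000 to 2000 bp genome-wide, it was found in 603 of 877 with *rco1*Δ above and in 89 with *rco1*Δ below. Among AcH4-rich stretches of that width, *rco1*Δ lay below in 1090 of 1182 and above in 0. The differences lay between -1.10 and 0.51, with a median of -0.40. The lowest was the right end of chromosome 9, with -1.49, -1.43 and -1.42 in *rco1*Δ and -0.32, -0.40 and -0.33 in wild type. The highest was the left end of chromosome 2, with -0.95, -0.95 and -0.74 in *rco1*Δ and -1.45, -1.34 and -1.39 in wild type. The arrays did not overlap at either end, and both were named after the values of all ends had been seen.

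Mean differences of whole chromosomes were small, in values centered on the median probe of each array. The mean difference of a chromosome was between -0.07 on chromosome 3 and 0.16 on chromosome 12, and the median difference was below 0 on all 16, between -0.34 and -0.15, so mean and median differ in sign on most. On chromosome 12 the mean was -0.15, -0.15 and -0.09 in *rco1*Δ and -0.25, -0.30 and -0.33 in wild type, without overlap. Chromosomes 2 and 10 also differed without overlap, by 0.08 and 0.11 (two-sided exact permutation p = 0.1 for each of the 3, adjusted p = 0.533 over 16 chromosomes). On the other 13 chromosomes the arrays overlapped. With every array at the same spread the mean difference was below 0 on 11 of the 16 chromosomes, between -0.34 on chromosome 3 and 0.05 on chromosome 10. The value of chromosome 12 turned to -0.03 with plain background subtraction, -0.08 in the deposited value table and -0.10 over bright probes. The share of probes called higher was between 20.6% on chromosome 3 and 29.4% on chromosome 12, and the share called lower between 25.9% on chromosome 1 and 29.8% on chromosome 5. Wide AcH4-poor stretches took between 16.7% and 27.9% of the probes of a chromosome, and across the 16 chromosomes this share and the share of probes called higher had a Pearson correlation of 0.03 and a Spearman correlation of 0.11, over chromosomes measured on the same arrays. The 155 stretches of at least 4000 bp were spread over all chromosomes, with 2 to 20 on each and a median difference between 1.43 and 1.94, and on 9 chromosomes all of them were called higher.

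In windows of 20 kb, 31.5% of 593 windows were called higher and 32.7% lower (limma, adjusted p under 0.05). Of the 43 windows with a probe within 20 kb of an end, 10 were called higher and 16 lower, against 177 higher and 178 lower among 550 others. Both of the largest rises were on chromosome 12. From 300000 to 320054 the mean was 0.21, 0.21 and 0.25 in *rco1*Δ and -1.17, -1.25 and -1.27 in wild type, a difference of 1.45 ± 0.07 (SE; adjusted p = 3.71e-10 from limma), and from 960473 to 976815 the difference was 1.41. The first of these holds the second widest AcH4-poor stretch. Both of the largest falls were at chromosome ends. The last 18679 bp covered on chromosome 9 (420050 to 438728) had -0.87, -0.89 and -0.76 in *rco1*Δ and 0.00, -0.06 and 0.01 in wild type, a difference of -0.82 ± 0.05 (SE; adjusted p = 2.01e-09 from limma). The right end of chromosome 5 (560140 to 570332) had -0.99, -1.07 and -1.06 in *rco1*Δ and -0.24, -0.18 and -0.24 in wild type, also a difference of -0.82. Neither pair overlapped. The near balance of window calls depended on the processing. With plain background subtraction 10 windows were called higher and 143 lower, 46 higher and 196 lower in the deposited values, over bright probes 78 higher and 290 lower, and with every array at the same spread 166 higher and 235 lower.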

How the data were processed

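Each array was a 2-color Agilent tiling array of 1 biological repeat. The authors deposited scanner output of Agilent Feature Extraction 10.5.1.1, with spot, background and processed signals as linear intensity, the processed ones background-subtracted and dye-corrected, and a table of normalized log2 ratios, used here only as an alternative. Log2 ratios of the processed signals (Cy5 over Cy3) were set to a median of 0 over the non-control probes of an array, and outlier-flagged spots were left out. A value was missing for this reason on at least 1 of the 6 arrays at 1053 probes, and means were taken over the rest. Probes, stretches and windows of 20 kb with at least 20 probes were compared by moderated linear models (limma 3.58.1 under R 4.3.3, lmFit then eBayes) on all 12 arrays in 4 groups, with Benjamini-Hochberg adjustment over all probes, stretches or windows. The fit was tested on simulated data. Class means of arrays were compared by exact permutation tests. Windows, stretches and tests, and the rule for named regions (longest runs, widest stretches, largest rises and falls, widest stretches not called), were chosen with earlier results of these data known. Alternatives covered background correction, loess, the deposited table, spread, dim probes, blocks, the stretch definition and each array left out. Plots were drawn with matplotlib 3.10.9.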

Additional observations from a re-analysis of the deposited data

How the results depend on the processing

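Counts and sizes moved with the processing, some small differences changed sign, and the causes were not tested. Probes called higher numbered 3193 with plain background subtraction, 5557 with normexp, 4278 with loess, 5457 in the deposited table and 6549 over bright probes (well above background in both channels on every compared array). Probes called lower numbered 6854 with plain subtraction, 6123 with normexp, 3051 with loess, 7772 in the table and 6996 at an adjusted p under 0.01. Stretches called higher numbered 887 with plain subtraction, 1457 with normexp, 1307 with loess and 1250 in the table, and stretches called lower 2436 with normexp and 1275 with loess. Windows called higher numbered 10 with plain subtraction, 41 with normexp, 84 with loess, 46 in the table and 78 over the brighter probes. Windows called lower numbered 143 with plain subtraction, 76 with normexp, 88 with loess, 196 in the table, 290 over the brighter probes and 235 at the same spread.

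The difference in AcH4-poor stretches of at least 4000 bp was 0.95 with plain subtraction, 0.86 with normexp, 0.55 with loess, 0.71 in the table, 1.41 over brighter probes, 1.88 with stretches defined at 0.5 and 1.08 at the same spread. In AcH4-poor stretches under 500 bp it turned to -0.01 with plain subtraction, -0.15 in the table and -0.36 at the same spread. In AcH4-rich stretches of at least 4000 bp it was -0.68 with normexp, -0.33 with loess, -0.57 in the table, -0.90 with stretches at 0.5 and -0.39 at the same spread. In the outer 5 kb it was -0.13 with normexp, -0.20 with loess, -1.17 in the table, -0.70 over brighter probes and -1.96 at the same spread. On chromosome 12 it was 0.00 with normexp, 0.02 with loess and 0.03 at the same spread, and it turned to -0.03 with plain subtraction, -0.08 in the table and -0.10 over brighter probes. The offset of wide from narrow stretches at equal level, *rco1*Δ minus wild type, was 0.17 with plain subtraction and 0.13 with normexp and with loess. It was 0.17 in the table and 0.43 at the same spread. The difference at ends at equal level was -0.30 with normexp, -0.29 with loess, -0.85 in the table, -0.46 over brighter probes and -1.10 at the same spread. In the widest AcH4-poor class the IP difference was 0.83 with plain subtraction and 0.84 with normexp, and the input difference was -0.22 with plain subtraction and turned to 0.11 over brighter probes.

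Leaving out each array in turn gave 9369 to 10417 probes higher and 8866 to 11347 lower, 1.62 to 1.76 in the widest AcH4-poor class and -0.57 to -0.42 in the outer 5 kb. Deviations of same-numbered *rco1*Δ and wild type arrays from their strain means correlated at -0.097, 0.016 and -0.017, so the numbers did not pair the arrays. With the replicate number as a block, 10545 probes were called higher and 10919 lower, 2198 stretches higher and 3825 lower, and 184 windows higher and 186 lower. For single regions and classes, 14 of 366 values had another sign than the main value, in 5 regions or classes: the AcH4-poor stretches under 500 bp, the level-matched 20 to 50 kb and the 3 uncalled wide stretches on chromosomes 7 and 1. Low IP signal limits the values in wide AcH4-poor stretches in wild type and at chromosome ends in *rco1*Δ.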
